A study of Mus musculus with 32 samples.

Results

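The 9 genes described here encode the mouse receptors for the Fc part of IgG antibodies, the chain and the kinase that carry their signal, and 3 integrin chains used in phagocytosis: Fcgr1, Fcgr2b, Fcgr3, Fcgr4, Fcer1g, Syk, Itgam, Itgb2 and Itgav. They were found by gene name, 1 row each, among the 45706 genes of a table of RNA sequencing counts from 32 libraries of BV-2 cells, an immortalised mouse microglial line that the labels call wild type and, by cell type, glioblastoma. Every group was transfected, either with a scramble control RNA or with a mimic, a synthetic duplex that stands in for a mature microRNA. The mimics were of miR-146a-5p, miR-7a-5p and miR-29a-3p, called miR-146a, miR-7a and miR-29a here. Cells were kept for 24 h in vehicle or in lipopolysaccharide (LPS, an endotoxin to which microglia respond with inflammation) at 10 ng/ml. This gave 8 groups of 4 libraries, named here VEH or LPS with the transfected RNA: VEH_scramble, VEH_miR-7a, VEH_miR-29a, VEH_miR-146a, LPS_scramble, LPS_miR-7a, LPS_miR-29a and LPS_miR-146a. The labels and the study's methods differ on whether LPS or transfection came first. Within a condition all 3 mimics were set against 1 set of 4 scramble libraries, and comparisons that share them depend on each other. The study describes 4 independent experiments on a single line, so the spread between libraries is that of repeated cultures, not of animals.

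Fc gamma receptors let a phagocyte bind and engulf a particle coated with IgG. Fcgr1 is the high affinity receptor, Fcgr3 and Fcgr4 are activating receptors of lower affinity, and all of these need Fcer1g, the common gamma chain, whose cytoplasmic motif (ITAM) is phosphorylated and recruits the kinase Syk. Fcgr2b has an inhibitory motif of its own and dampens the signal of the activating receptors. Itgam (CD11b) pairs with Itgb2 (CD18) to form the complement receptor that takes up particles coated with complement fragments, and Itgav pairs with several beta chains to bind vitronectin and bridging proteins on dying cells. In the brain the Fc gamma receptors and the pair of Itgam and Itgb2 are found mainly on microglia and macrophages, while Itgav is also made by many other cells.

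The 3 mimics are shown first because all comparisons between transfected RNAs rest on them. The mature sequences are those of RefSeq on GRCm38.p6, and the capitals mark the seed, bases 2 to 8, which differs between all 3.
miR-7a-5p: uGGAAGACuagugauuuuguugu
miR-29a-3p: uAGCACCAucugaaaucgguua
miR-146a-5p: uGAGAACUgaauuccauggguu

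Letters matching these seeds were searched in the longest annotated 3′ untranslated region (UTR) of each gene in the GENCODE M21 transcripts of GRCm38. A match to the seed was counted with the base opposite position 8, with an A opposite position 1, or with both, which is called an 8mer. For miR-29a-3p, 0 of the 9 genes held a match, against 16% of 21007 genes with a UTR. For miR-146a-5p, Fcgr2b held 1 match, the only 8mer among the 9 genes, and Syk held 2, against 18.2% of all genes. For miR-7a-5p, Fcgr1, Fcer1g and Itgb2 held 1 match each, against 23.2% of all genes. The sites are printed because the comparisons of these mimics with scramble give the values of these genes; capitals mark the matching letters and the coordinates are theirs.
Fcgr2b, miR-146a-5p, chr1:170959957-170959964: tatgtaacaggAGTTCTCAggaagtcaaac
Syk, miR-146a-5p, chr13:52647439-52647445: ttagaccagtgGTTCTCAaccttcctaat
Syk, miR-146a-5p, chr13:52647924-52647930: tctgagcaagaAGTTCTCtgctgagctcc
Fcgr1, miR-7a-5p, chr3:96283045-96283051: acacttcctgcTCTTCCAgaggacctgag
Fcer1g, miR-7a-5p, chr1:171229673-171229679: gacatttctctTCTTCCAgcctcctttgc
Itgb2, miR-7a-5p, chr10:77565407-77565413: tccagggacttGTCTTCCgacctgcacaa

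Promoters of 8 of the 9 genes were in the RefSeq table of GRCm38.p6, which did not list Itgb2. Those of Fcgr1 and Fcgr4 are printed because the search described after them found GAS or ISRE letters in these alone, and each is the 120 bases before the start site, chr3:96293970-96294089 on the minus strand for Fcgr1 and chr1:171018806-171018925 on the plus strand for Fcgr4. Capitals mark a GAS motif, TTCNNNGAA, in the Fcgr1 window, an ISRE motif, GAAA followed by any 2 bases and again GAAA, in the Fcgr4 window, and a PU.1 motif, GAGGAA or TTCCTC on the other strand, in both.
Fcgr1: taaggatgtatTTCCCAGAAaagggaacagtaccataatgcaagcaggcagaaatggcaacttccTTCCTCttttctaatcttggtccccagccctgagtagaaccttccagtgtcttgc
Fcgr4: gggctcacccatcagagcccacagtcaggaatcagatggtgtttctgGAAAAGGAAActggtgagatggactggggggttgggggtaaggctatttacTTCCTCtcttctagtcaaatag
The motifs were searched on both strands from 250 bases before to 50 after each start site, and the 3 kinds do not overlap in these windows. GAS letters were in 8.3% and ISRE letters in 3.44% of 32851 mouse promoters, and among the member promoters each was found only in the one printed. PU.1 letters were in 28.3% of all promoters and in a promoter of 6 of the 8 genes listed, Fcgr1, Fcgr3, Fcgr4, Itgam, Itgav and 1 of the start sites of Syk. The windows of the start sites of Fcgr3 overlap and hold the same letters. These matches describe the letters and were not tested for binding.

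Fcgr2b, Fcgr3, Fcgr4 and Fcer1g lie together on chromosome 1 of GRCm38, at 170958617 to 170976547, 171051174 to 171064935, 171018920 to 171029761 and 171229572 to 171234365. Fcgr1 lies on chromosome 3 (96282909 to 96293969), Itgam on 7 (128062640 to 128118491), Itgb2 on 10 (77530252 to 77565708), Itgav on 2 (83724397 to 83806916) and Syk on 13 (52583173 to 52648792), and all 9 are protein-coding. The deposited values had lost their decimal marks, and levels rest on marks restored by a model that gave every one of the members' values a posterior of at least 0.960. Of sequences of 31 bases in the transcripts of Fcgr3, 13.4% also occur in Fcgr2b, so reads could be split between this pair. Of those of Itgam, 67.2% also occur in Gm49368, an annotated gene that overlaps it and has no row of that name in the table, and the share of its reads counted elsewhere is unknown. For the remaining genes the largest share with any other gene was 2.28%, for Itgb2 with Gm14699.

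Library totals were 1213749 to 20823323 counts, and the members' restored counts ran from 27 for Fcgr4 to 8324 for Fcer1g in a library. Small structural RNA took 35.4% to 39.1% of the counts in VEH_miR-7a replicates 2 to 4 and 2.82% to 18.9% in all other libraries. The members' LPS calls in miR-7a cells are therefore given without these replicates too. The share also moved with LPS without overlap in scramble cells, from 7.24% to 13.2% in VEH_scramble to 3.15% to 6.49% in LPS_scramble, and in miR-7a cells. Of 12 markers of microglia and macrophages, 11 had a mean of at least 1 CPM (counts scaled by TMM to a common library size), among them Cd68 (997 CPM), Adgre1 (765 CPM) and Csf1r (632 CPM), while Cx3cr1 was near 0 (mean 0.797 CPM). The sum of that list was 4111 to 7520 CPM per library. Markers of astrocytes summed to at most 2.64 CPM, of neurons to at most 4.07 CPM, of lymphocytes to at most 7.25 CPM and of oligodendrocytes to at most 17.4 CPM, and a list for fibroblasts and endothelium reached 315 CPM through Kdr alone (mean 207 CPM).

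All 9 genes were expressed in all 32 libraries. Per kilobase of merged exons, which allows levels of different genes to be compared, Fcer1g was highest in VEH_scramble at 540 ± 268 CPM per kb (SD, n = 4), followed by Fcgr3 at 311 ± 75.2, Itgb2 at 61.8 ± 8.71, Fcgr4 at 37.0 ± 12.6, Itgam at 26.0 ± 4.78, Fcgr2b at 23.8 ± 1.28, Fcgr1 at 17.7 ± 0.757, Syk at 12.2 ± 2.41 and Itgav at 11.5 ± 3.19. In this order Fcgr3 was above Itgb2, Itgb2 above Fcgr4, Fcgr2b above Fcgr1 and Fcgr1 above Syk in every library, while the libraries of Fcer1g and Fcgr3, of Fcgr4, Itgam and Fcgr2b, and of Syk and Itgav overlapped. In LPS_scramble the order was Fcer1g (352 ± 131 CPM per kb), Fcgr3 (194 ± 5.95), Itgb2 (70.6 ± 11.8), Fcgr1 (49.2 ± 6.30), Fcgr4 (40.6 ± 4.39), Itgam (38.8 ± 4.68), Fcgr2b (26.8 ± 1.56), Syk (16.9 ± 1.1) and Itgav (10.2 ± 1.55). Fcgr1 had moved from the seventh to the fourth place, where its libraries overlapped those of Fcgr4.

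**Figure D1:**
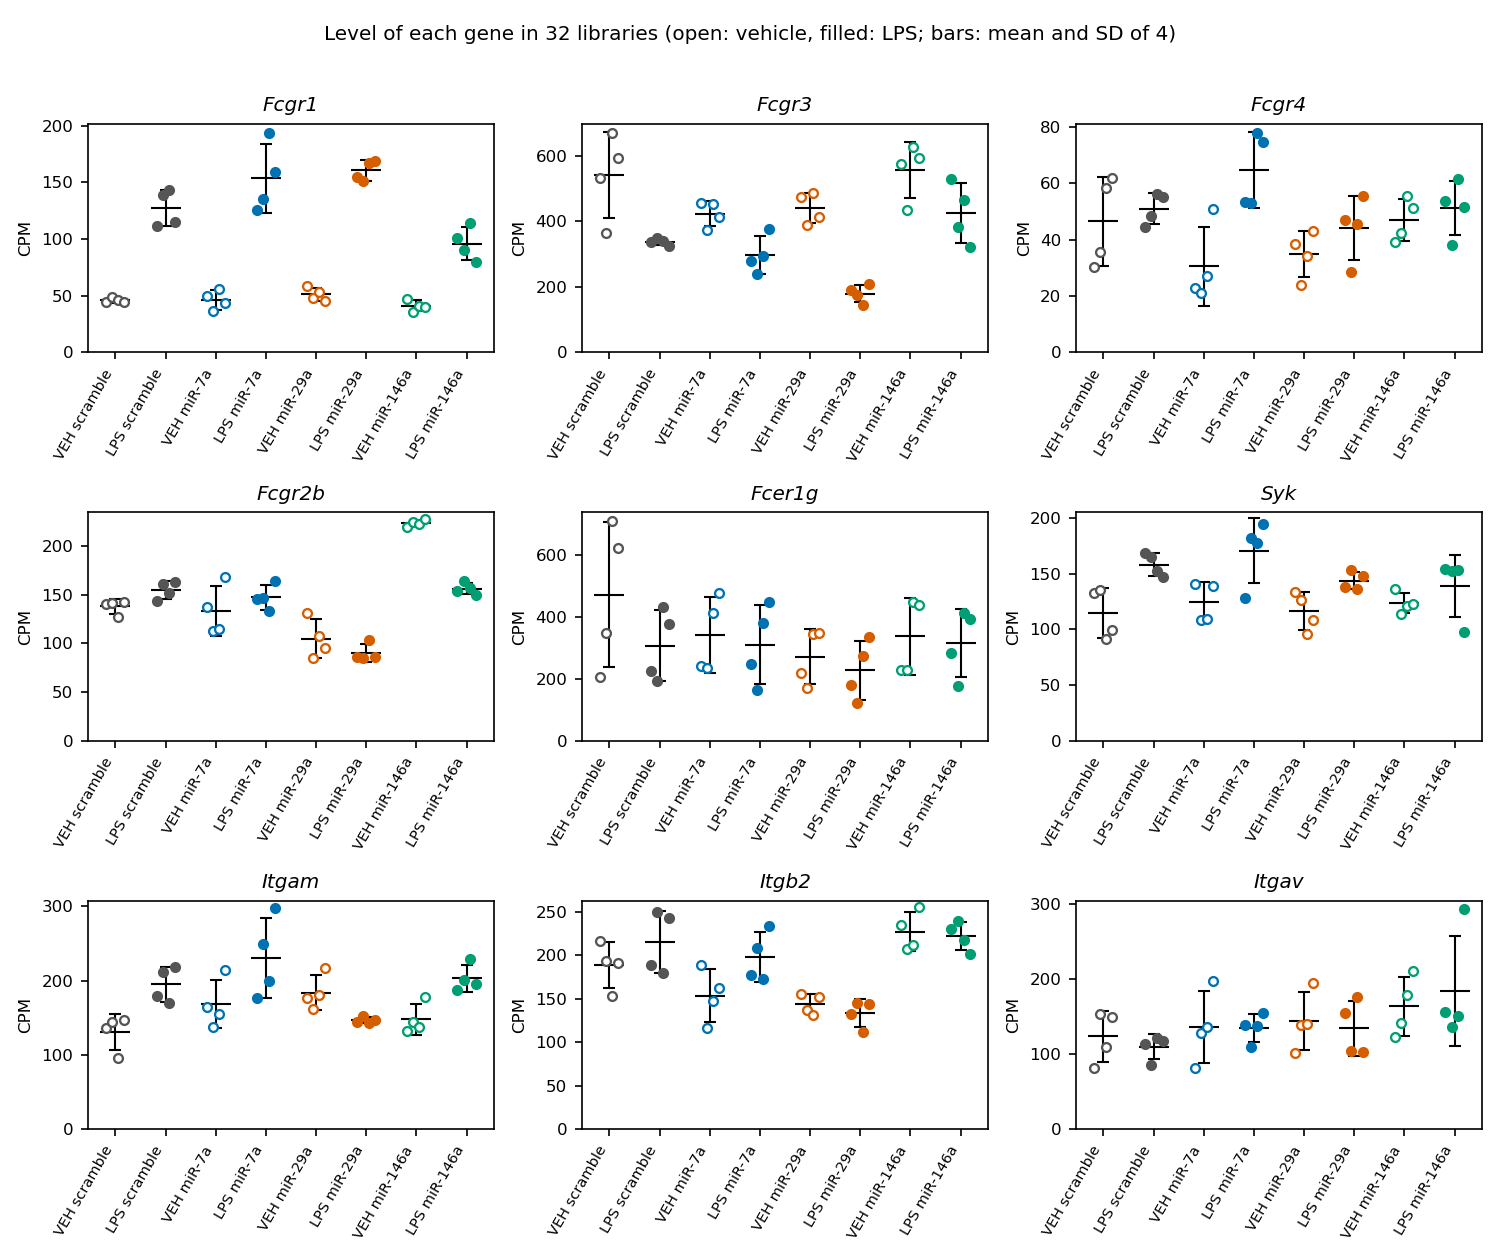
Level of each of the 9 genes in CPM (vertical axis, from 0) in the 8 groups (horizontal axis). Each point is a library, open for vehicle and filled for LPS, and the black bars are the mean and SD of 4 libraries. Fcgr1 in LPS libraries (79.6 to 194 CPM) lay above all its vehicle libraries, Fcgr3 was lowest in LPS_miR-29a (mean 179 CPM), and Fcgr2b was highest in VEH_miR-146a (mean 224 CPM).

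LPS raised the high affinity receptor Fcgr1 in each of the 4 transfected arms and lowered Fcgr3 in 3 of them. Fold changes are on the log2 scale with their standard error (SE), from limma voom fits of each pair of groups over all genes, and a gene was called at a Benjamini-Hochberg adjusted p under 0.05. In scramble cells 3 of 9 genes were called (Fcgr1 and Itgam higher, Fcgr3 lower), where 17.9% of 12132 genes were called. In miR-7a cells 3 of 9 were called (Fcgr1 and Fcgr4 higher, Fcgr3 lower; 6.66% of all genes), in miR-29a cells 3 of 9 (Fcgr1 higher, Fcgr3 and Itgam lower; 26.5%) and in miR-146a cells 2 of 9 (Fcgr1 higher, Fcgr2b lower; 4.49%). The median log2 fold change of the 9 genes was 0.14, 0.27, -0.17 and 0.036 in these arms, and that of all genes tested was between -0.022 and 0.021. Leaving the structural RNA genes out of the counts changed the call of no member in these 4 comparisons. The list for fibroblasts and endothelium moved with LPS in every arm without overlap, from 141 to 195 CPM in VEH_scramble to 246 to 315 CPM in LPS_scramble, with Kdr as its only gene over a mean of 1 CPM (Pecam1 0.858 CPM, Col1a1 0.00734 CPM).

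Fcgr1 was at 44.1, 48.4, 46.5 and 44.6 CPM in the replicates of VEH_scramble and at 112, 139, 143 and 115 CPM in LPS_scramble. With the miR-7a mimic it was at 49.8, 36.1, 55.9 and 43.5 CPM under vehicle and at 126, 135, 194 and 159 CPM under LPS. The groups did not overlap in either arm, and every LPS library lay well above the highest vehicle library in both. With miR-29a the values were 58.2, 47.7, 53.0 and 45.6 CPM under vehicle and 154, 151, 167 and 169 CPM under LPS. With miR-146a they were 47.4, 35.4, 41.0 and 40.3 CPM under vehicle and 101, 90.1, 114 and 79.6 CPM under LPS. Here too no LPS library came down to the level of a vehicle library. The log2 fold change was 1.43 ± 0.14 (SE; adjusted p = 8.66e-05) in scramble cells, 1.61 ± 0.20 (adjusted p = 0.000575) in miR-7a cells, 1.61 ± 0.13 (adjusted p = 1.14e-05) in miR-29a cells and 1.25 ± 0.15 (adjusted p = 0.00045) in miR-146a cells, which is 2.69-, 3.05-, 3.05- and 2.37-fold. These calls were kept when any 1 of the 8 libraries was left out. With VEH_miR-7a replicates 2 to 4 left out, the change in miR-7a cells was 1.57 with an adjusted p of 0.0598, a fit in which the single remaining vehicle library is assumed to vary like the LPS group.

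Fcgr3, the most abundant of the IgG receptors under vehicle, moved the other way. It was at 533, 363, 670 and 594 CPM in VEH_scramble and at 336, 349, 341 and 324 CPM in LPS_scramble. In miR-7a cells it was at 454, 372, 452 and 413 CPM under vehicle and 279, 239, 293 and 377 CPM under LPS. The scramble groups lay apart, while in miR-7a cells LPS replicate 4 reached above vehicle replicate 2. In miR-29a cells Fcgr3 was at 472, 389, 485 and 411 CPM under vehicle and at 191, 173, 145 and 207 CPM under LPS. In miR-146a cells it was at 574, 433, 626 and 593 CPM under vehicle and at 529, 381, 464 and 322 CPM under LPS. The miR-29a groups were far apart, and the miR-146a groups overlapped. Fcgr3 fell by 0.68 ± 0.18 (adjusted p = 0.0245) in scramble cells, by 0.61 ± 0.15 (adjusted p = 0.0318) in miR-7a cells and by 1.36 ± 0.15 (adjusted p = 6.93e-05) in miR-29a cells. In miR-146a cells the log2 fold change was -0.43 ± 0.16 (adjusted p = 0.177) and did not pass. The call in miR-29a cells was kept without any 1 library. The call in scramble cells was kept without VEH_scramble replicate 1 or 2 and lost without any 1 of the other 6 libraries (adjusted p 0.0512 to 0.0775). The call in miR-7a cells was kept only without LPS_miR-7a replicate 4 and lost without any other single library (adjusted p 0.0523 to 0.111), and with VEH_miR-7a replicates 2 to 4 left out the change was -0.66 with an adjusted p of 0.384.

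Fcgr4, an activating receptor for IgG2 subclasses, was higher under LPS in miR-7a cells. It was at 22.7, 21.2, 27.1 and 50.9 CPM in VEH_miR-7a and at 53.3, 53.1, 77.6 and 74.7 CPM in LPS_miR-7a. These groups did not overlap, although vehicle replicate 4 came close to the lowest LPS libraries. The log2 fold change was 1.24 ± 0.25 (adjusted p = 0.011). Without VEH_miR-7a replicate 1 it was 1.05 (adjusted p = 0.0698), and without VEH_miR-7a replicates 2 to 4 it was 1.46 (adjusted p = 0.125). In the other arms Fcgr4 was between 24.0 and 61.7 CPM under vehicle and between 28.6 and 61.4 CPM under LPS, and it was not called there.

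Fcgr2b, the inhibitory receptor, fell with LPS by 0.54 ± 0.11 (adjusted p = 0.0107) in miR-146a cells, from 220, 225, 223 and 228 CPM to 154, 164, 157 and 150 CPM. The vehicle libraries lay close together and far above the LPS libraries. This call was kept without any 1 library. In scramble cells Fcgr2b was at 138 ± 7.39 CPM (SD, n = 4) under vehicle and at 155 ± 9.06 CPM under LPS and was not called, and it was not called in miR-7a or miR-29a cells. Its libraries overlapped between LPS_miR-146a and LPS_scramble, while those of VEH_miR-146a lay above those of VEH_scramble.

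The integrin chain Itgam was called higher under LPS in scramble cells and lower in miR-29a cells. The test of the difference between these responses did not pass in limma (adjusted p = 0.333) and passed with the replicate block (adjusted p = 0.0287) and in DESeq2 (adjusted p = 0.0093). In scramble cells it was at 136, 145, 95.3 and 146.5 CPM under vehicle and at 179, 211, 170 and 218 CPM under LPS. In miR-29a cells it was at 176, 161, 181 and 217 CPM under vehicle and at 144, 152, 143 and 147 CPM under LPS. In both arms the groups did not overlap, with LPS above vehicle in scramble cells and below it in miR-29a cells. Itgam rose by 0.54 ± 0.17 (adjusted p = 0.0413) in scramble cells and fell by 0.38 ± 0.12 (adjusted p = 0.0365) in miR-29a cells. In miR-7a cells the means were 168 ± 32.4 and 231 ± 53.9 CPM (vehicle and LPS; SD, n = 4) and in miR-146a cells 148 ± 20.8 and 203 ± 18.1 CPM, neither called by limma, while DESeq2 called the latter (0.44, adjusted p = 0.0422; 6.89% of all genes called). The call in scramble cells was kept only without VEH_scramble replicate 2 (other single libraries left out, adjusted p 0.0519 to 0.129). The call in miR-29a cells was kept only without VEH_miR-29a replicate 1 or 2 (others, adjusted p 0.0567 to 0.11), and with no filter on low counts its adjusted p was 0.0964.

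Itgb2, Itgav, Syk and Fcer1g were called in 0 of the 4 arms by limma, edgeR or DESeq2 when each pair of groups was fitted alone. At an unadjusted p under 0.05, only Syk was among them, with 0.44 ± 0.16 in scramble cells (adjusted p = 0.0755) and 0.37 ± 0.17 in miR-7a cells (adjusted p = 0.231). Syk was called in scramble cells without VEH_scramble replicate 2 (adjusted p = 0.0346) and in miR-7a cells without LPS_miR-7a replicate 1 (adjusted p = 0.048). In a limma fit of all 32 libraries Syk was called in scramble cells too (0.42, adjusted p = 0.034), 4 of 9 genes against 22.3% of all genes. Same-numbered replicates deviated together in each of these 4 comparisons, and with the replicate number as a block Syk and Fcer1g were called as well in scramble cells, 5 of 9 genes against 25.2% of all genes. In that fit Syk was higher by 0.44 (adjusted p = 0.0271), and Fcer1g fell by 0.56 (adjusted p = 0.044). In miR-29a cells the block added Fcer1g, which fell by 0.35 (adjusted p = 0.026), for 4 of 9 genes against 37.6% of all genes.

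**Figure D2:**
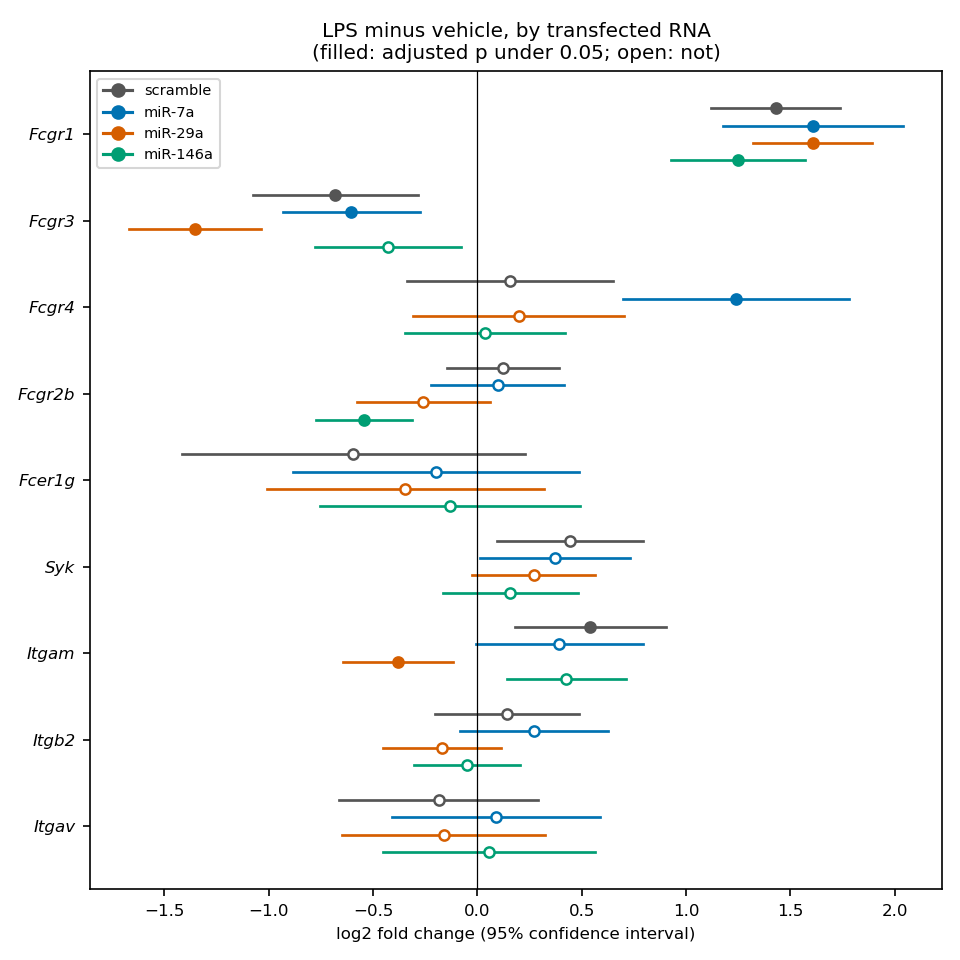
Log2 fold change of LPS over vehicle (horizontal axis) for the 9 genes (vertical axis) in cells with the scramble RNA or 1 of the 3 mimics (colours). Points are limma estimates from 4 against 4 libraries, lines their 95% confidence intervals, and filled points passed an adjusted p of 0.05. Fcgr1 is filled in all 4 arms between 1.25 and 1.61, and Itgam lies on both sides of 0.

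Under vehicle, limma called 1 of the 9 genes over the 3 mimics, Fcgr2b with the miR-146a mimic. It was at 220, 225, 223 and 228 CPM against 141, 141, 127 and 143 CPM in VEH_scramble. The groups did not overlap, and Fcgr2b rose by 0.68 ± 0.13 (adjusted p = 0.0331). It was the 1 gene of 9 called in this comparison, where 1.91% of all genes were called. Fcgr2b is also the gene that holds the 8mer letters for the miR-146a seed printed above, and its change with that mimic was a rise. Whether the site had a part in it was not tested. The call was kept without VEH_scramble replicate 1 or 2 and lost without any 1 of the other 6 libraries (adjusted p 0.0696 to 0.123), with a log2 fold change of 0.65 to 0.70 in all 8 refits. Syk, which also holds letters for that seed, was at 0.10 ± 0.16 (adjusted p = 0.732). With miR-7a, 0 of 9 genes were called by limma, edgeR or DESeq2 (0.0456% of all genes called by limma and 2.04% by DESeq2). At an unadjusted p under 0.05 in limma were 1364 of 10955 genes, and 1 of the 9. That gene was Fcgr4, at 46.4 ± 15.8 CPM in VEH_scramble and 30.5 ± 13.9 CPM in VEH_miR-7a (SD, n = 4; adjusted p = 0.355). Of the genes with letters for the miR-7a seed, the log2 fold change was 0.047 ± 0.18 for Fcgr1, -0.38 ± 0.37 for Fcer1g and -0.28 ± 0.18 for Itgb2 (adjusted p 0.539 to 0.939). With miR-29a, 0 of 9 were called by the same 3 tools (0.00868% of all genes called by limma and 0.729% by DESeq2). An unadjusted p under 0.05 was reached by 1189 of 11521 genes in limma, and by 3 of the 9. These were Itgam (log2 fold change 0.49 ± 0.17), Fcgr2b (-0.42 ± 0.16) and Itgb2 (-0.39 ± 0.15), with adjusted p of 0.348 to 0.398. Every library of VEH_miR-29a lay above those of VEH_scramble for Itgam, although the difference did not pass. The microglia and macrophage markers summed to 5884 to 7520 CPM in VEH_scramble, 4793 to 5817 CPM in VEH_miR-29a and 4675 to 5902 CPM in VEH_miR-7a, and their part was not tested.

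Under LPS, the miR-29a mimic lowered Fcgr2b, Fcgr3 and Itgb2 relative to scramble, so that the inhibitory receptor, the main low affinity receptor and the beta chain of the complement receptor were all called (3 of 9 genes against 4.76% of all genes). Fcgr2b was at 144, 161, 152 and 164 CPM in LPS_scramble and at 85.7, 85.2, 103 and 86.6 CPM in LPS_miR-29a. Fcgr3 was at 336, 349, 341 and 324 CPM in LPS_scramble and at 191, 173, 145 and 207 CPM in LPS_miR-29a. Itgb2 was at 189, 250, 180 and 243 CPM in LPS_scramble and at 133, 145, 111 and 144 CPM in LPS_miR-29a. For each of the 3 genes every miR-29a library lay below every scramble library, and the share of all genes whose groups lay apart is not given. Fcgr2b fell by 0.77 ± 0.11 (adjusted p = 0.00617), Fcgr3 by 0.91 ± 0.13 (adjusted p = 0.00514) and Itgb2 by 0.67 ± 0.14 (adjusted p = 0.023), to 0.585, 0.531 and 0.628 of the scramble level. None of these 3 holds letters matching the miR-29a seed in its UTR. The calls of Fcgr2b and Fcgr3 were kept without any 1 library, and that of Itgb2 was lost without LPS_scramble replicate 2 or 4 or LPS_miR-29a replicate 3 (adjusted p 0.0582 to 0.09).

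Itgam and Fcgr1 also lay apart in this comparison, at 195 ± 23.5 CPM in LPS_scramble against 146.4 ± 3.96 CPM in LPS_miR-29a for Itgam (SD, n = 4; log2 fold change -0.39 ± 0.11, adjusted p = 0.0714) and 127 ± 16.3 against 161 ± 8.98 CPM for Fcgr1 (0.34 ± 0.12, adjusted p = 0.123). DESeq2 called Itgam as well (-0.41, adjusted p = 0.014), 4 of 9 genes against 7.73% of all genes. With the replicate block, which same-numbered replicates followed here, 6 of 9 genes were called against 10.4% of all genes, with Itgam (adjusted p = 0.0163), Fcer1g (fell by 0.45, adjusted p = 0.0144) and Fcgr1 (0.35 higher, adjusted p = 0.0499) added. The summed level of the 12 microglia and macrophage markers moved with these groups, from 5497 to 6195 CPM in LPS_scramble to 4111 to 5071 CPM in LPS_miR-29a, and its part in the result was not tested. In bulk RNA a lower level in every cell and fewer cells in a state that expresses a gene cannot be told apart.

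With the miR-7a and miR-146a mimics under LPS, limma without the replicate block called no member against scramble. For miR-7a, 0 of 9 genes were called by limma, edgeR or DESeq2, where limma called 2.73% and DESeq2 6.07% of all genes. With miR-7a 0 of 9 had an unadjusted p under 0.05 in limma, against 2244 of 12877 genes. Its 95% confidence intervals for Fcgr2b (-0.32 to 0.16), Fcgr3 (-0.51 to 0.095) and Itgb2 (-0.44 to 0.19) all held 0. Fcgr1 and Fcer1g, which like Itgb2 hold letters for its seed, were at 0.25 ± 0.15 (adjusted p = 0.435) and -0.012 ± 0.32 (adjusted p = 0.99). For miR-146a, 0 of 9 were called by limma and edgeR and 1 by DESeq2 (2.39% of all genes called by limma and 5.25% by DESeq2). At an unadjusted p under 0.05 in limma stood 3 of 9, against 2180 of 12458 genes. The 3 were Fcgr1 (log2 fold change -0.39 ± 0.13, adjusted p = 0.152), Itgav (0.69 ± 0.23, adjusted p = 0.153) and Fcgr3 (0.31 ± 0.14, adjusted p = 0.279). Itgav, at 113, 85.0, 122 and 118 CPM in LPS_scramble and 156, 136, 151 and 294 CPM in LPS_miR-146a, was the gene called by DESeq2 (0.77, adjusted p = 0.0421), and its groups did not overlap. Replicate 4 of LPS_miR-146a lay far above the other 3 for Itgav, and without it the limma log2 fold change was 0.45 (adjusted p = 0.153). With the replicate block 2 of 9 genes were called against 10.8% of all genes, namely Fcgr1, which fell by 0.41 (adjusted p = 0.0206), and Itgav, 0.72 higher (adjusted p = 0.0225). Syk, which holds 2 matches to the miR-146a seed, was at 158 ± 10.3 CPM in LPS_scramble and 139 ± 27.9 CPM in LPS_miR-146a (adjusted p = 0.589).

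**Figure D3:**
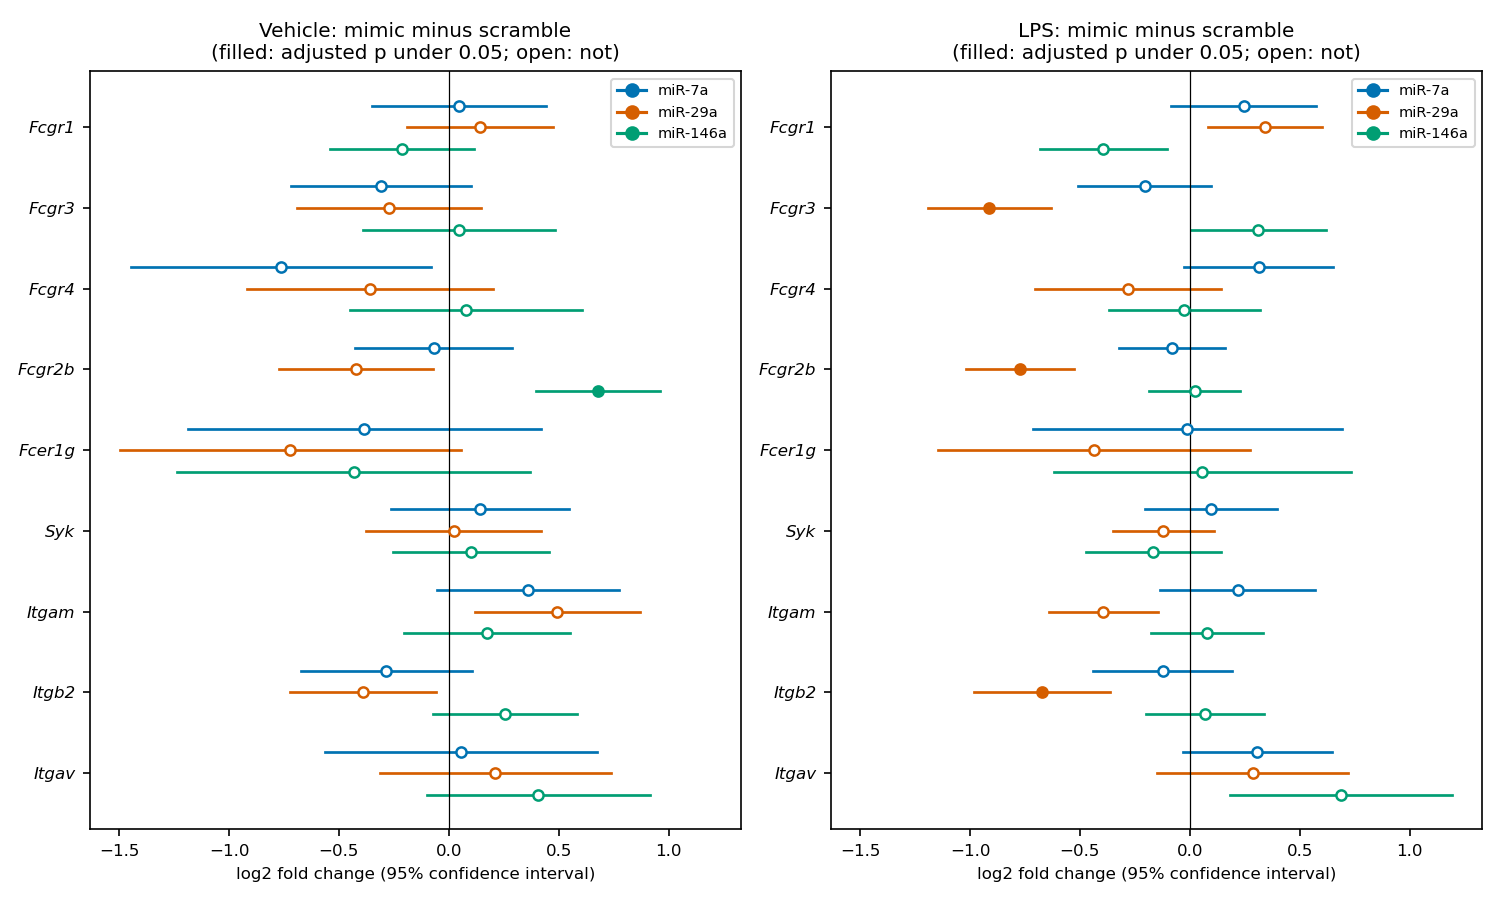
Log2 fold change of each mimic over scramble (horizontal axis) under vehicle (left) and LPS (right) for the 9 genes. Points are limma estimates from 4 against 4 libraries, lines their 95% confidence intervals, colours the 3 mimics, and filled points passed an adjusted p of 0.05. Under LPS the filled points are Fcgr3 (-0.91), Fcgr2b (-0.77) and Itgb2 (-0.67) with miR-29a, and under vehicle Fcgr2b with miR-146a (0.68).

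When the miR-29a and miR-146a mimics were set directly against each other under LPS, limma called 5 of 9 genes against 12% of all genes. Fcgr3 was lower with miR-29a by a log2 difference of -1.24 ± 0.17 (adjusted p = 0.00111), Fcgr2b by -0.82 ± 0.12 (adjusted p = 0.00174), Itgb2 by -0.76 ± 0.13 (adjusted p = 0.0035) and Itgam by -0.49 ± 0.12 (adjusted p = 0.0185). Fcgr1 was higher with miR-29a by 0.72 ± 0.13 (adjusted p = 0.00621). For all 5 genes the 4 libraries of a mimic lay on one side of the 4 of the other. This describes the same values as the calls, and its share over all genes is not given. The call of Itgam was lost without LPS_miR-146a replicate 3 (-0.43, adjusted p = 0.0744), and the other 4 were kept without any 1 library. With the replicate block Fcer1g was added, lower by -0.52 (adjusted p = 0.00258), for 6 of 9 genes against 26.2% of all genes. The microglia and macrophage markers summed to 4111 to 5071 CPM in LPS_miR-29a and 5879 to 6781 CPM in LPS_miR-146a, and the list for fibroblasts and endothelium, carried by Kdr, to 278 to 307 CPM and 226 to 255 CPM. Their part in these differences was not tested.

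Between miR-7a and miR-29a under LPS, 2 of 9 genes were called against 3.77% of all genes. Fcgr2b was higher with miR-7a by 0.71 ± 0.13 (adjusted p = 0.0115) and Fcgr3 by 0.72 ± 0.17 (adjusted p = 0.0353). Itgam (0.63 ± 0.16, adjusted p = 0.0553) and Itgb2 (0.56 ± 0.15, adjusted p = 0.0558) also lay apart and came close to the threshold, and DESeq2 called both, 4 of 9 genes against 6.81% of all genes, while edgeR called Itgam (adjusted p = 0.0452). The microglia and macrophage markers summed to 4973 to 6619 CPM in LPS_miR-7a and 4111 to 5071 CPM in LPS_miR-29a, and the list carried by Kdr to 215 to 246 CPM and 278 to 307 CPM, and their part was not tested. The Fcgr3 call was kept without LPS_miR-7a replicate 1 or 2 or LPS_miR-29a replicate 4 and lost without any 1 of the other 5 libraries (adjusted p 0.0664 to 0.113). Without LPS_miR-7a replicate 1, Itgam (0.75, adjusted p = 0.0188) and Itgb2 (0.62, adjusted p = 0.0432) were called too. With the replicate block limma called 6 of 9 against 9.47% of all genes. It added Itgam (adjusted p = 0.0081), Itgb2 (adjusted p = 0.0054), Fcer1g (adjusted p = 0.015) and Fcgr4 (adjusted p = 0.0233), each higher with miR-7a. Same-numbered replicates correlated by 0.0298 to 0.652 (mean 0.386), the lowest under the set minimum of 0.1. Between miR-7a and miR-146a, 1 of 9 was called against 6.28% of all genes, Fcgr1, at 126, 135, 194 and 159 CPM with miR-7a and 101, 90.1, 114 and 79.6 CPM with miR-146a. The difference was 0.63 ± 0.16 (adjusted p = 0.0405), and the call was kept only without LPS_miR-7a replicate 1 (others, adjusted p 0.058 to 0.122). DESeq2 called Fcgr3 as well (-0.54, adjusted p = 0.048), 2 of 9 genes against 10.8% of all genes. With the replicate block 3 of 9 were called in that comparison against 21% of all genes, with Fcgr3 (-0.53, adjusted p = 0.0239) and Itgav (-0.41, adjusted p = 0.049) lower with miR-7a.

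The test of whether the LPS response itself differed between a mimic and scramble used the interaction of both factors over 16 libraries. For miR-29a, limma and edgeR called 0 of 9 genes and DESeq2 1 (0.0165% of all genes called by limma and 0.141% by DESeq2). In limma 791 of 12097 genes had an unadjusted p under 0.05, and 3 of the 9. Itgam had the largest difference among these, -0.91 ± 0.19 (adjusted p = 0.333), followed by Fcgr3 (-0.66 ± 0.23, adjusted p = 0.623) and Fcgr2b (-0.37 ± 0.18, adjusted p = 0.763). Itgam passed with the replicate block, which same-numbered replicates followed in this comparison (-0.91, adjusted p = 0.0287, 1 of 9 genes against 0.132% of all genes), and in DESeq2 (-0.90, adjusted p = 0.0093). For miR-146a, limma and edgeR called 0 of 9 and DESeq2 1, Fcgr2b, with a limma estimate of -0.67 ± 0.14 (adjusted p = 0.34) and a DESeq2 adjusted p of 7.17e-05. Of all genes limma called 0% and DESeq2 0.157%. In limma 1 member had an unadjusted p under 0.05, against 1355 of 12133 genes. Without VEH_scramble replicate 1 the limma test of Fcgr2b passed (-0.67, adjusted p = 0.0464). For miR-7a all 3 tools called 0 of 9 (0.00836% of all genes called by limma and 0.568% by DESeq2). Fcgr4 alone had an unadjusted p under 0.05 in limma (1.08 ± 0.36, adjusted p = 0.658), against 643 of 11964 genes. The larger fall of Fcgr3 under LPS in miR-29a than in scramble cells was thus not established by this test.

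Ratios within a library describe the balance of the receptors and carry no test. Fcgr3 made up 80.6% to 88.2% of the summed level of the activating receptors (Fcgr1, Fcgr3 and Fcgr4, in CPM per kb) in all 16 vehicle libraries. Under LPS its share was 68.4% ± 2.02 (SD, n = 4) in scramble cells, 60.7% ± 4.23 in miR-7a cells, 51.4% ± 4.25 in miR-29a cells and 75.6% ± 2.98 in miR-146a cells. Every LPS library lay below every vehicle library, and the 4 LPS groups did not overlap each other. Fcgr1 relative to Fcgr3 went from 0.0605 ± 0.0196 in VEH_scramble to 0.253 ± 0.0271 in LPS_scramble, and from 0.0782 ± 0.00497 to 0.612 ± 0.109 with miR-29a. The inhibitory receptor Fcgr2b relative to the summed activating receptors stayed between 0.0487 and 0.131 in all libraries, with the highest mean in VEH_miR-146a (0.105 ± 0.0174) and the lowest in VEH_miR-29a (0.0598 ± 0.00661).

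The chains of the complement receptor were not in a fixed proportion. Itgam relative to Itgb2 was 0.420 ± 0.0458 in VEH_scramble and 0.396 ± 0.0392 in VEH_miR-146a, against 0.674 ± 0.114 in VEH_miR-7a and 0.778 ± 0.0901 in VEH_miR-29a. The 4 libraries of VEH_miR-7a (0.532 to 0.798) and of VEH_miR-29a (0.687 to 0.869) all lay above those of VEH_scramble (0.379 to 0.465). VEH_miR-7a replicates 2 to 4, the libraries rich in structural RNA, were at 0.722, 0.643 and 0.798, and replicate 1 was lowest at 0.532. Under LPS the ratio was 0.553 ± 0.0292 in LPS_scramble, 0.702 ± 0.0708 in LPS_miR-7a, 0.673 ± 0.0737 in LPS_miR-29a and 0.559 ± 0.0676 in LPS_miR-146a. The libraries of LPS_miR-7a and LPS_miR-29a lay above those of LPS_scramble, and those of LPS_miR-146a overlapped them. The part of Itgam reads that may be counted under the overlapping Gm49368 bears on the size of this ratio in every library.

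**Figure D4:**
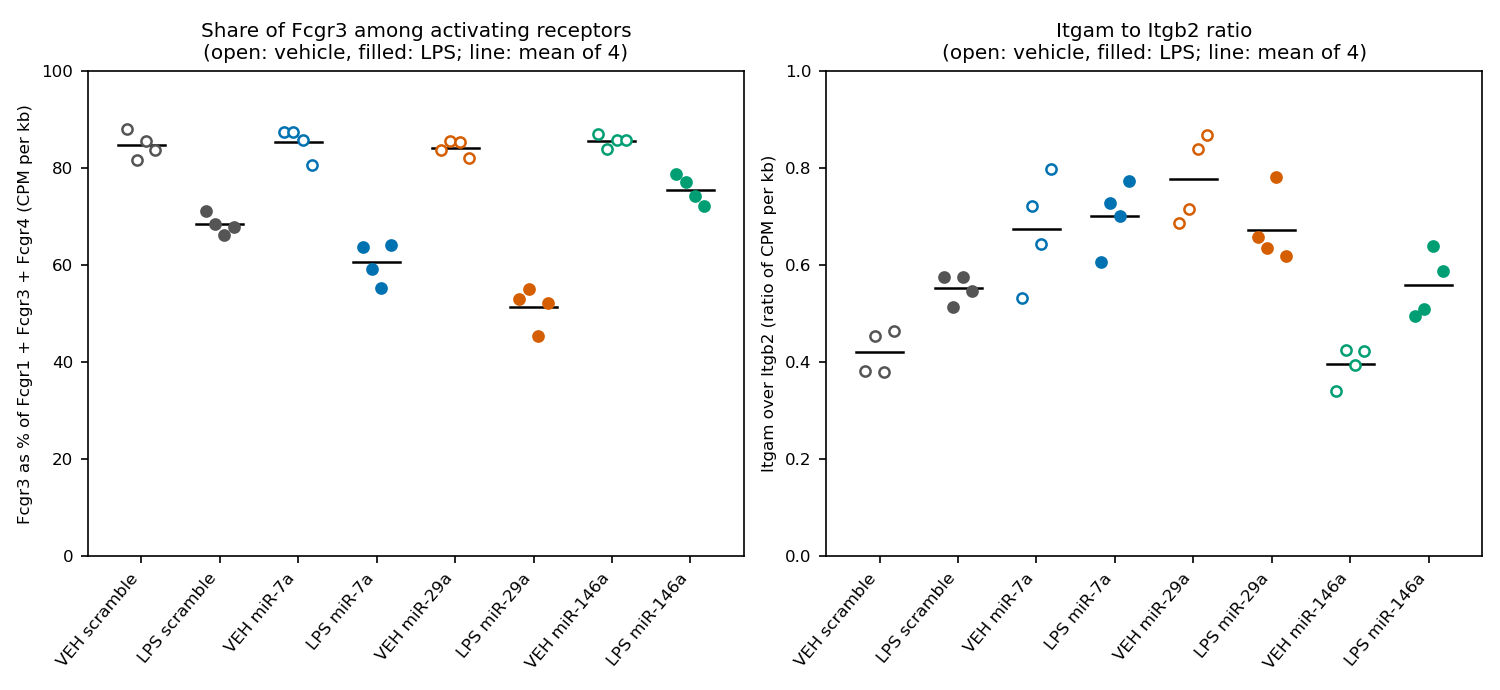
Left, the level of Fcgr3 as a percentage of the summed level of Fcgr1, Fcgr3 and Fcgr4, and right, the ratio of Itgam to Itgb2, both from CPM per kb, in the 8 groups (horizontal axis). Points are libraries, open for vehicle and filled for LPS, and lines are means of 4. The Fcgr3 share is between 80.6% and 88.2% in vehicle libraries and lowest in LPS_miR-29a (mean 51.4%), and the Itgam to Itgb2 ratio under vehicle is higher with miR-7a and miR-29a than with scramble.

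Fcer1g, the chain that all 3 activating receptors need, varied more with the replicate number than with the group. It was at 206, 349, 709 and 623 CPM in replicates 1 to 4 of VEH_scramble and at 227, 194, 430 and 378 CPM in LPS_scramble. In VEH_miR-29a it was at 220, 171, 345 and 349 CPM and in LPS_miR-29a at 180, 122, 273 and 335 CPM. Replicates 3 and 4 both lay above replicates 1 and 2 in all 8 groups, and the lower of the former was 1.38 to 1.92 times the higher of the latter. Of the variance of its log2 CPM over the 32 libraries, 70.5% lay between the 4 replicate numbers and 20.1% between the 8 groups, where the medians over 8585 genes were 15.2% and 47.7%. The labels do not say what the numbers mark. Fcgr4 and Itgav also had more than the median share between replicate numbers, 30.2% and 28.9%. At the other end, 95.7% of the variance of Fcgr1, 88.4% of that of Fcgr2b and 84.8% of that of Fcgr3 lay between groups, and vehicle against LPS alone took 88.2% for Fcgr1 and 1.54% for Fcgr2b.

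**Figure D5:**
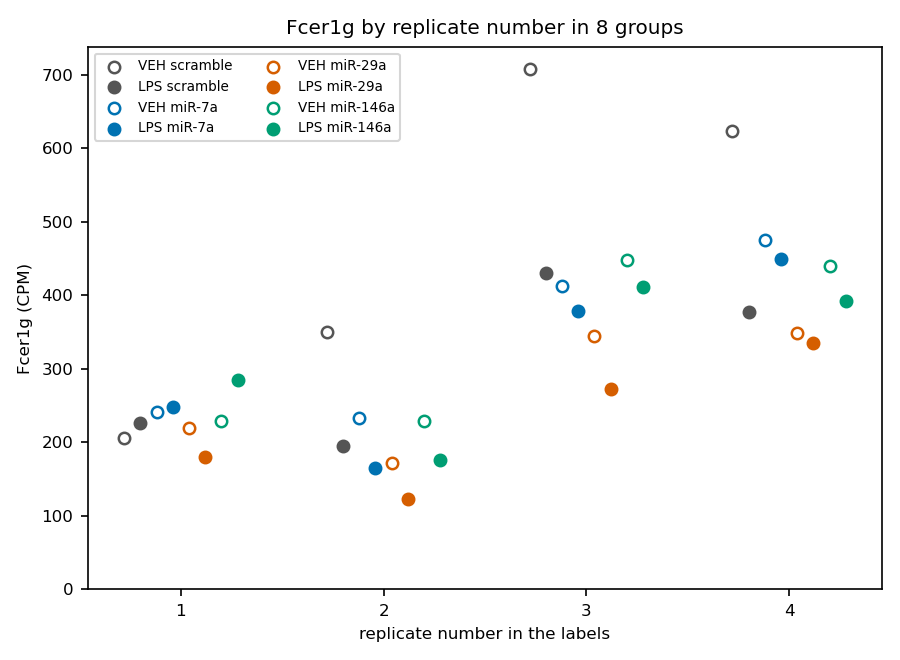
Fcer1g in CPM (vertical axis, from 0) by the replicate number given in the labels (horizontal axis). Each point is a library, coloured by transfected RNA, open for vehicle and filled for LPS. In each of the 8 groups the points of replicates 3 and 4 lie above those of replicates 1 and 2.

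Genes that act with the members were counted from 7 lists of 181 genes in all. With LPS in scramble cells, 35 of 141 tested were called, 13 higher and 22 lower (17.9% of all genes), with a median log2 fold change of -0.14 over the lists and 0.0082 over all genes. Among other Fc receptors and ITAM adaptors 3 of 5 tested fell, among them the adaptor Tyrobp, which went from 612 ± 121 to 290 ± 22.4 CPM (-1.1 ± 0.18, adjusted p = 0.00155), with Hcst (-1.20 ± 0.32) and Fcgrt, the neonatal Fc receptor (-0.75 ± 0.16). Of 33 kinases and adaptors downstream of Fc receptors 5 rose and 2 fell. The Src family kinase Fgr rose from a low level (2.44 ± 0.73, adjusted p = 0.0393), and the adaptor Lat2 fell (-0.88 ± 0.15, adjusted p = 0.00197). A list drawn by hand was named for inhibitory phosphatases and receptors, but Siglec1 and Cd33 on it were not checked to be inhibitory. Of its 16 tested genes 4 rose, among them Pirb (1.65 ± 0.22) and Siglec1 (1.33 ± 0.28), and 3 fell, among them Cd33 (-1.23 ± 0.16).

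In the same comparison, 1 of 42 genes for GTPases and actin machinery of the phagocytic cup rose and 4 fell, with the actin-severing Gsn going from 1846 ± 487 to 816 ± 56.3 CPM (-1.19 ± 0.19, adjusted p = 0.00167) and Myo10 and Arpc4 lower by -0.80 each. Of 27 integrin activation and adhesion adaptors 3 rose and 5 fell. Fyb, an adaptor of integrin activation, rose from 99.2 ± 30.9 to 428 ± 112 CPM (2.07 ± 0.25, adjusted p = 0.000274), Cd47 rose (0.98 ± 0.15) and Zyx fell (-0.92 ± 0.21). Of 10 other integrin subunits only Itgax (CD11c), which shares the partner Itgb2 with Itgam, was called, and it fell from 194 ± 47.1 to 55.1 ± 16 CPM (-1.84 ± 0.23, adjusted p = 0.000358). Of 9 ligands bridged by these integrins 1 rose (Thbs1) and 4 fell, among them Tgfb1 (-1.34 ± 0.25) and the low Lrrc32 (-1.76 ± 0.48).

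In miR-29a cells 65 of 144 tested were called with LPS, 13 higher and 52 lower, against 26.5% of all genes, with a median of -0.25 over the lists and -0.014 over all genes. The test of whether the LPS response differed between miR-29a and scramble cells called 0 of the list genes tested in limma, edgeR and DESeq2, with 20 at an unadjusted p under 0.05 in limma. By list, with LPS in miR-29a cells 1 rose and 3 fell of the 5 other Fc receptors and adaptors, and 4 and 11 of 33 kinases and adaptors. On the list named for inhibitory genes it was 4 and 7 of 18. For the others these numbers were 0 and 12 of 42 genes of the cup, 4 and 11 of 28 adhesion adaptors, 0 and 4 of 11 integrin subunits, and 1 and 4 of 8 ligands. Cd33 fell from 98.3 ± 12.8 to 25.5 ± 1.54 CPM (-2.02 ± 0.14, adjusted p = 3.74e-06), Gsn from 1349 ± 219 to 330 ± 87.6 CPM (-2.12 ± 0.20, adjusted p = 2.76e-05) and Itgax from 83.5 ± 26.4 to 18 ± 1.91 CPM (-2.25 ± 0.22, adjusted p = 3.47e-05). Fyb rose (1.81 ± 0.22), while Tyrobp fell (-1.28 ± 0.19). The microglia and macrophage markers, which include Tyrobp, summed to 4793 to 5817 CPM in VEH_miR-29a and 4111 to 5071 CPM in LPS_miR-29a, and their part in this was not tested. In miR-7a cells 5 rose and 9 fell of 137 (6.66% of all genes called; with the replicate block 10 and 17, against 14.5%), and in miR-146a cells 5 rose and 6 fell of 142 (4.49%). Tyrobp and Itgax fell and Fyb and Siglec1 rose in both of these arms, with Tyrobp at -1.03 ± 0.20 and -0.60 ± 0.13 and Fyb at 1.28 ± 0.17 and 1.06 ± 0.18. With VEH_miR-7a replicates 2 to 4 left out, Tyrobp was at -0.53 and Fyb at 1.26 in miR-7a cells. That fit leaves a single vehicle library, so it could not show whether the calls in miR-7a cells hold.

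Against scramble under LPS, miR-29a moved 14 of 144 list genes, 4 higher and 10 lower (4.76% of all genes called). Gsn fell from 816 ± 56.3 to 330 ± 87.6 CPM (-1.33 ± 0.18, adjusted p = 0.00388), Itgax from 55.1 ± 16 to 18 ± 1.91 CPM (-1.61 ± 0.20, adjusted p = 0.00278) and the adaptor Grb2 from 177 ± 17.7 to 89.7 ± 11.2 CPM (-0.97 ± 0.13, adjusted p = 0.00427). Tyrobp (-0.57 ± 0.14), Cd33 (-0.85 ± 0.14), Rapgef1 (-0.58 ± 0.12) and Itga5 (-0.60 ± 0.15) fell as well, and Fgr (1.57 ± 0.25), Yes1, Rasgrp2 and Itgb7 rose. With miR-7a 5 of 141 were called (2.73% of all genes), Fcrl1, Lat and Itgb7 higher and Coro1a and Evl lower. With miR-146a 3 of 142 were called (2.39% of all genes), all higher: Cblb (0.71 ± 0.11), Ceacam1 (1.12 ± 0.21) and Itgax, at 102 ± 15.6 against 55.1 ± 16 CPM (0.89 ± 0.19, adjusted p = 0.0337). These counts rose with the replicate block, which same-numbered replicates followed in all 3 comparisons. Limma then called 21 of 141 list genes with miR-7a, 12 higher and 9 lower (9.17% of all genes), 30 of 144 with miR-29a, 10 higher and 20 lower (10.4%), and 29 of 142 with miR-146a, 24 higher and 5 lower (10.8%). DESeq2 called 13, 20 and 9 in the same order, against 6.07%, 7.73% and 5.25% of all genes. Itgax was below scramble with miR-29a and above it with miR-146a, and between these mimics it differed by -2.53 ± 0.16 (adjusted p = 1.39e-05). Under vehicle limma and edgeR called 0 of 137 list genes with miR-7a (0.0456% of all genes called by limma), where DESeq2 called 1 (2.04%). In limma 23 of the 137 had an unadjusted p under 0.05, against 1364 of 10955 genes. Without VEH_miR-7a replicates 2 to 4 a single library of that group is left, and no count is drawn from that fit. With miR-29a limma and edgeR called 0 of 141 (0.00868% of all genes by limma), DESeq2 2 (0.729%) and limma with the replicate block 2 (0.503%). In limma 15 of the 141 had an unadjusted p under 0.05, against 1189 of 11521 genes. With miR-146a limma called 1 of 140 (1.91% of all genes), the actin regulator Coro1a (-1.05 ± 0.16, adjusted p = 0.0187), and DESeq2 called 15 (10.1%), a share near that of all genes.

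Genes with the most similar pattern were those with the highest Pearson correlation of log2 CPM with a member over all 32 libraries, among genes with a mean of at least 10 CPM. These libraries share their groups and replicate numbers, so the values only describe likeness. For Fcgr1 they were Oasl2 (r = 0.97), Lcn2 (0.96) and Irgm1 (0.96), and for Fcgr3 Ctsh (0.94) and Apoe (0.91). For Fcer1g they were Sh3bgrl3 (0.95), Ndufv3 (0.92) and Cd63 (0.91), and for Fcgr2b Zfp568 (0.88), Ctnnb1 (0.85) and Frrs1 (0.85). The best matches were weaker for Syk (Slx4, 0.86), Itgb2 (Ensa, 0.85), Itgam (Xdh, 0.81), Itgav (Sec24a, 0.80) and Fcgr4 (B2m, 0.79). No member was among the 3 best matches of another. Between members the highest value was that of Fcgr2b and Itgb2 (0.80), and the lowest that of Fcgr1 and Fcgr3 (-0.74).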

How the data were processed

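Total RNA of 32 libraries of transfected BV-2 cells was extracted with TRIzol, depleted of ribosomal RNA and made into CORALL libraries, which the authors processed with the nf-core RNA-seq pipeline on GRCm38. The quantifier and its annotation are not given in the sources used here. The authors deposited estimated counts per gene for 45706 genes, and in the deposited table the decimal marks were missing, so that 1 value could stand for several. Of 109458 values of at least 20000, 0.0155% ended in 0 where whole counts would give 10%. Marks were restored by a model that weighed 0, 1, 2 or 3 decimals by the digits and the gene's level in the other libraries (t distribution with 7 degrees of freedom). Libraries of the same group counted most, then those of the same condition. The group labels thus entered the values that were later compared between groups. Of 590874 positive values 28.4% were read as fractional and 1.28% were uncertain (posterior under 0.9), and a gene with an uncertain value in a compared library was left out of that comparison. All 9 members were kept in every comparison. The authors' own analysis used edgeR and limma, per the labels.

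Each pair of groups was fitted separately with limma 3.58.1 (voom, filterByExpr, TMM factors from edgeR 4.0.16; R 4.3.3), with Benjamini-Hochberg adjustment over all genes tested and a call at an adjusted p under 0.05. Interactions were fitted over 16 libraries. Restored counts were rounded for edgeR's quasi-likelihood test and DESeq2 1.42.0, which were alternatives, as were a block for the replicate number, no filter on low counts, the values as deposited, a posterior minimum of 0.99, all 32 libraries in 1 fit, leaving out structural RNA genes, an added fold threshold and leaving out each library in turn. Leaving out the 3 VEH_miR-7a libraries rich in structural RNA was chosen after seeing the data. Same-numbered replicates were taken as paired where the deviations of all 4 pairs from their group means correlated over 0.1, which held in 11 of 16 comparisons. The correlation was 0.271 to 0.424 between LPS_scramble and VEH_scramble. The steps were tested on simulated libraries made from gene means over all 32 libraries, with a set spread and changes planted in LPS_scramble. Against VEH_scramble, 142 of 144 tested genes with a planted log2 change of at least 1 were called. At a planted change of 0.5 it was 11 of 49, and 6 of 12416 unchanged genes were called.

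The members and gene lists were chosen with earlier results of these data known. The text names all members, from each list up to 3 called genes per comparison with the largest change, and genes from the 3 most correlated with each member; some items that this rule names are not reported here. Promoters and microRNAs were taken from RefSeq tables of GRCm38.p6 and UTRs from GENCODE M21.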

Additional observations from a re-analysis of the deposited data

Results flagged for a closer look

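Of 72 sets of 4 libraries (9 genes in 8 groups), 4 had 1 library far from the other 3 by Dixon's test, which chance gives in about 1 of 20 sets. They were Fcgr2b in VEH_scramble replicate 3, at 127 CPM below the others, Fcgr2b in LPS_miR-29a replicate 3, at 103 CPM above the others, Itgav in LPS_miR-146a replicate 4, at 294 CPM above the others, and Syk in LPS_miR-146a replicate 4, at 97.5 CPM below the others. The LPS response of Itgam differed between miR-29a and scramble cells by -0.91 on the log2 scale in the limma fit with the replicate block (adjusted p = 0.0287). Without the block it did not pass in limma (adjusted p = 0.333), nor in any of the 16 limma refits that left out 1 library (adjusted p 0.177 to 0.755), and DESeq2 called it (-0.90, adjusted p = 0.0093).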

How the results depend on the processing

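With the values taken as deposited, without restored decimal marks, 24 of 144 member results changed, and 22 of the 23 calls were lost or reversed. In that setting the members called fell to 0 for LPS against vehicle in scramble and miR-146a cells, for LPS_miR-29a against LPS_scramble, for VEH_miR-146a against VEH_scramble and for all 3 comparisons between mimics, to 1 for LPS against vehicle in miR-7a and in miR-29a cells, and rose to 1 for the miR-7a interaction. It reversed Itgam in miR-29a cells (1.40) and Fcgr2b in miR-146a cells (1.5) for LPS against vehicle, Fcgr2b in VEH_miR-146a against VEH_scramble (-1.33), Fcgr1 in LPS_miR-7a against LPS_miR-146a (-0.75), and Fcgr1 (-0.63) and Itgam (0.45) in LPS_miR-29a against LPS_miR-146a. As deposited, 0.753%, 1.95%, 1.62% and 0.258% of all genes were called for LPS in scramble, miR-7a, miR-29a and miR-146a cells, in place of 17.9%, 6.66%, 26.5% and 4.49%. In the other comparisons named for called members it was 0.118% to 0.411%. Of 72 group levels 64 moved by more than 1 SD as deposited and 15 when scaled by plain totals.

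The replicate block gave 5 called members for LPS in scramble cells, 6 for LPS_miR-29a and 2 for LPS_miR-146a against LPS_scramble, 3 for LPS_miR-7a against LPS_miR-146a, 1 for the miR-29a interaction and 6 for LPS_miR-7a against LPS_miR-29a. In the last, 9.47% of all genes were called, and the lowest correlation of same-numbered replicates (0.0298) missed the set minimum. The block changed the number of called members in no other comparison but LPS in miR-29a cells and LPS_miR-29a against LPS_miR-146a, given above with it. DESeq2 gave 1 for LPS_miR-146a against LPS_scramble, 4 for LPS_miR-7a against LPS_miR-29a, 2 for LPS_miR-7a against LPS_miR-146a (10.8% of all genes) and 1 each for the miR-29a and miR-146a interactions. All 32 libraries in 1 fit gave 4 for LPS in scramble cells, with Syk added (22.3% of all genes), and 4 and 2 for LPS_miR-7a against LPS_miR-29a (7.37%) and LPS_miR-146a (11.5%). A posterior minimum of 0.99 left out members with a value under it. It gave 2 of 8 members still tested for LPS in scramble cells (19.5% of all genes) and 0 of 5 in miR-146a cells (5.12%). Of those still tested it gave 0 of 7 for VEH_miR-146a against VEH_scramble (1.97%) and 4 of 9 for LPS_miR-7a against LPS_miR-29a (4.75%). For LPS_miR-7a against LPS_miR-146a it gave 0 of 6 (7.09%) and for LPS_miR-29a against LPS_miR-146a 2 of 6 (13.5%). In each of these the calls that went missing were of members no longer tested, and 0 members still tested lost a call. Without the 3 libraries rich in structural RNA, 0 were called for LPS in miR-7a cells, with 1 vehicle library left. edgeR kept all calls but that of Fcgr3 for LPS in miR-7a cells (adjusted p = 0.0565).

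With 1 library left out at a time, the members called ranged from 1 to 4, 1 to 3, 2 to 3 and 2 to 2 for LPS in scramble, miR-7a, miR-29a and miR-146a cells. Against LPS_scramble they ranged from 0 to 0 for LPS_miR-7a, 2 to 3 for LPS_miR-29a and 0 to 0 for LPS_miR-146a, and against VEH_scramble from 0 to 0, 0 to 0 and 0 to 1. Between mimics they ranged from 1 to 4 (miR-7a and miR-29a), 0 to 1 (miR-7a and miR-146a) and 4 to 5 (miR-29a and miR-146a), and for the interactions from 0 to 0, 0 to 0 and 0 to 1. Among all genes, the share called for LPS in miR-7a cells was 6.66%, 14.5% with the block and 10.8% by DESeq2, and for LPS_miR-146a against LPS_scramble 2.39%, 10.8% and 5.25%. Under vehicle it was 0.0456%, 2.98% and 2.04% for miR-7a, 0.00868%, 0.503% and 0.729% for miR-29a, and 1.91%, 7.35% and 10.1% for miR-146a. Of the list genes, the block called 27 in place of 14 for LPS in miR-7a cells and 21, 30 and 29 in place of 5, 14 and 3 against LPS_scramble. With no filter on low counts 36 of 169 were called for LPS in miR-7a cells (30.9% of all genes) and 5 of 172 for VEH_miR-146a against VEH_scramble (1.47%). For LPS in miR-146a cells DESeq2 (6.89%) and all 32 libraries in 1 fit (7.09%) gave 19 each in place of 11. The latter gave 8 and 7 for LPS_miR-7a and LPS_miR-146a against LPS_scramble (3.73% and 3.19%) and 18 for VEH_miR-146a against VEH_scramble (12.3%), where the block gave 11 (7.35%) in place of 1. The cause of these changes was not tested. With 4 libraries a group, a missing call does not show that a member did not differ.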
